A study of Mus musculus with 12 samples.

Results

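Aortic valve leaflets of mice carrying the double deletion (DKO) were set against leaflets of mice carrying the endothelial deletion alone (ECKO), to read what smooth muscle deletion adds where the endothelial deletion is already present. The comparison holds 6 of the 12 libraries of the series, DKO 1 to 3 and ECKO 1 to 3, chosen by their genotype labels, and each library's total count column was used. All mice were 2 months old and of strain C57BL/6J;129SvEv. The labels give the genotypes only as the codes CTRL, ECKO, SMKO and DKO; in the study as it is known, the deleted gene is Efemp2 (fibulin-4), removed from endothelial cells (ECKO), smooth muscle cells (SMKO) or both (DKO). Both groups compared thus carry the endothelial deletion. No source used here gives the Cre lines that drive the deletions or the animal behind each library, so p-values measure the spread between libraries. Leaflets were cut by laser from fixed, hematoxylin-stained sections, and a library averages over every cell type of the leaflet: fewer cells of a type and less RNA per cell cannot be told apart.

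Fibulin-4 is a secreted glycoprotein that brings lysyl oxidase to tropoelastin, so that elastic fibres form and are cross-linked. It is known chiefly from the aortic wall, where its loss in smooth muscle cells leads to aneurysm. The aortic valve leaflet is a thin sheet of collagen, proteoglycan and elastin layers, made by interstitial cells and covered on both faces by endothelium. Melanocytes and resident macrophages also live in it.

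The 3 ECKO libraries held 207637, 615665 and 379034 counts and the 3 DKO libraries 247718, 455478 and 260449, within a range of 74827 to 615665 over all 12. Of 41709 genes in the deposited table, 16588 had a count and 6296 had enough counts to be tested. Levels are given as CPM, counts scaled to a common library size and composition. Mitochondrially encoded genes took 20.9%, 13.96% and 12.9% of the counts in ECKO 1 to 3, and 20.7%, 10.5% and 20.98% in DKO 1 to 3. Markers of other cell types were uneven in ECKO: a list of 11 erythrocyte and platelet genes summed to 97.3, 5613 and 3393 CPM in ECKO 1 to 3 and to 149 to 510.0 CPM in DKO, and 16 heart muscle genes to 25.6, 991 and 71.2 CPM in ECKO and to 79.7 to 91.2 CPM in DKO. Only 5 of the erythrocyte and platelet genes and 1 of the heart muscle genes had enough counts to be tested, and none was called. Of those 5, 2 were lower in DKO at an unadjusted p under 0.05. Y-linked genes had 28 counts in DKO 3, 1 in ECKO 1 and 0 in the other 4 libraries, so 1 DKO library differs from the rest in this sex-linked signal. The part of the mitochondrial share, of these markers and of sex in the results below was not tested. Of the lists for the labelled tissue, 21 valve endothelial markers summed to 2330 to 2824 CPM in ECKO and to 2379 to 2394 CPM in DKO, while 10 smooth muscle markers summed to only 415 to 491 and 473 to 532 CPM. Myh11, the myosin heavy chain that defines smooth muscle, had 0, 2 and 2 counts in ECKO and 1, 3 and 2 in DKO, and Pecam1, an endothelial junction protein, 45 to 209 and 67 to 157. Lists of 12 T and B lymphocyte genes and 8 adipocyte genes had at most 4 and 9 counts in any of the 6 libraries and no testable member.

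A library outside the comparison stood apart and touches its test. SMKO 2 lay near DKO: of 35 genes called below (Efemp2 left out), its log2 level was nearer to the DKO mean than to the ECKO mean in 31, against 4 to 9 in each of the other 5 CTRL and SMKO libraries. Over all genes tested that share was 58.2% for SMKO 2 and 41.6% to 43.8% for the others. On a scale where the ECKO mean is 0 and the DKO mean is 1, the median position of the 35 genes was 0.88 in SMKO 2 and 0.14 to 0.23 in the CTRL libraries, SMKO 1 and SMKO 3. The main test fits all 12 libraries together and takes its spread from every group, so SMKO 2 enters each p-value. Counts from a fit of the 6 libraries alone, and from a fit without SMKO 2, are therefore given beside the main count.

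**Figure D1:**
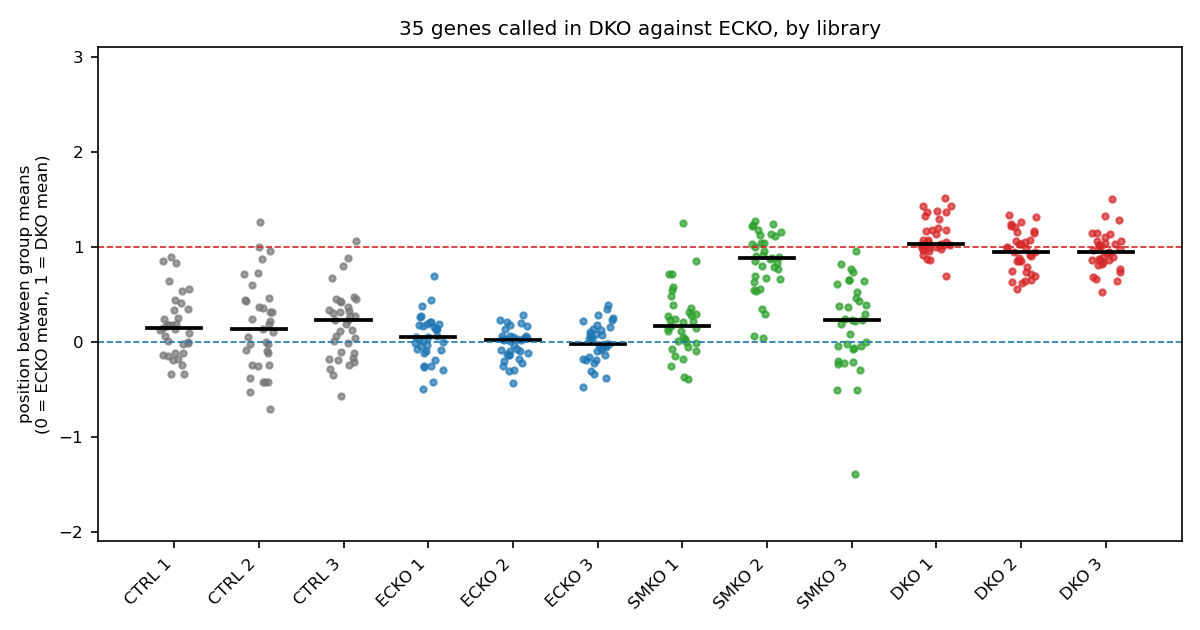
Position of each library between the ECKO mean (0) and the DKO mean (1) on the log2(CPM + 1) scale, for the 35 genes called in DKO against ECKO (points) with their median (bars). Genes were called on the ECKO and DKO libraries, so those 6 columns are fixed by the choice; among the other 6, SMKO 2 has a median of 0.88 and the rest lie between 0.14 and 0.23.

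Efemp2, the targeted gene, was present at a low level in ECKO and had no count in DKO. It had 3, 15 and 8 counts in ECKO 1, 2 and 3 (15.4, 21.9 and 18.4 CPM) and 0 counts in each DKO library. The ECKO mean of 18.5 ± 3.27 CPM (SD, n = 3) was at least 5.95-fold higher than the limit of 3 counts set on the DKO libraries together (3.11 CPM). No library of one group overlapped the other; the exact two-sided permutation p on log2(CPM + 1) was 0.1, the smallest that 3 libraries against 3 can give. In edgeR's quasi-likelihood test Efemp2 passed (adjusted p = 0.0399). Both groups carry the endothelial deletion, so what DKO lacks is the residual signal of ECKO leaflets. The gene shares exon sequence with Mus81 on the opposite strand, and the libraries do not keep strand.

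Across all genes, 36 of 6296 were called (0.572%) at an adjusted p under 0.05: 22 were higher in DKO (0.349%) and 14 lower (0.222%). The median log2 fold change over all genes tested was 0.02. At an unadjusted p under 0.05 there were 680 genes (10.8%; 6.07% higher and 4.73% lower), and in 1187 genes (18.9%) the 3 libraries of DKO all lay above (9.97%) or all below (8.88%) the 3 of ECKO. A level above that of ECKO, by any amount, was found in 51.8% of genes. Of the 36 called genes, 35 had no such overlap; Prox1 was the exception. Read over the 6 libraries alone, the same test called 172 of 5331 genes (3.23%), with 101 higher (1.89%) and 71 lower (1.33%). Of the 36 genes, 33 had enough counts to be tested there and all 33 were called. Without SMKO 2 the 11 remaining libraries called 150 of 7627 genes (1.97%), 93 higher (1.22%) and 57 lower (0.747%), among them all 36; 127 genes were shared by these 2 larger sets.

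The count of 36 depended on single libraries of the comparison: it was 6 without ECKO 1, 0 without ECKO 2, 0 without ECKO 3, 0 without DKO 1, 3 without DKO 2 and 17 without DKO 3. Where it was 0, unadjusted p under 0.05 was reached by 468, 439 and 591 genes. It was 4 without CTRL 1, 63 without SMKO 1 and 64 without SMKO 3. The 6-library count was 92 without ECKO 3, 117 without ECKO 2, 106 without DKO 2 and 279 without DKO 3, and 64 of its 172 genes, 23 of the 36 among them, passed without each of the 6 libraries in turn.

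**Figure D2:**
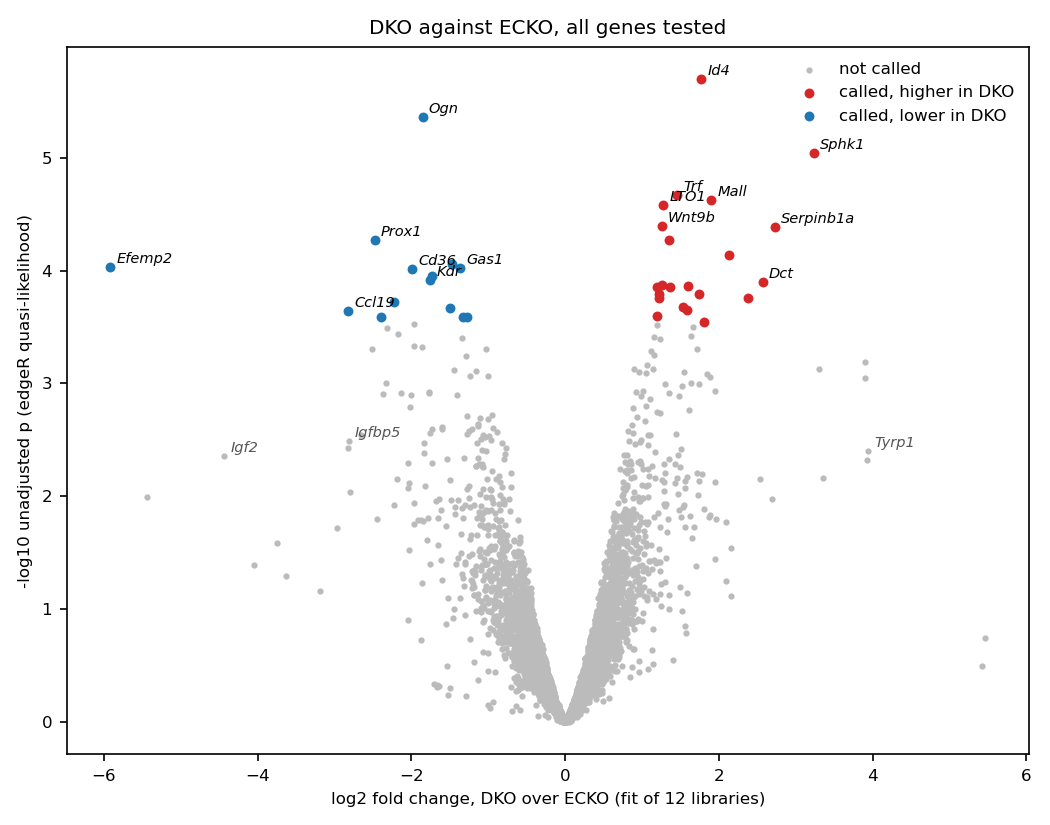
Log2 fold change of DKO over ECKO (x axis) against -log10 of the unadjusted p of edgeR's quasi-likelihood test in the fit of 12 libraries (y axis), for 6296 genes. Red points are the 22 called genes higher in DKO and blue points the 14 called genes lower; the grey names, Igf2, Igfbp5 and Tyrp1, have large fold changes, missed the threshold in this fit and were called in the fit of the 6 libraries and in the fit without SMKO 2.

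Among secreted signals, Wnt9b and Ccl2 rose in DKO and Ccl19 fell. Wnt9b, a Wnt ligand made by valve endothelium in response to flow, had 102, 128 and 138 CPM in ECKO 1 to 3 and 349.6, 269 and 282 CPM in DKO 1 to 3. Every DKO library was above every ECKO library, and the log2 fold change was 1.25 ± 0.26 (SE; adjusted p = 0.0324). Ccl2, the chemokine that attracts monocytes, had 5.12, 10.2 and 13.8 CPM in ECKO and 49.9, 73.7 and 37.3 in DKO (log2 fold change 2.38 ± 0.56, adjusted p = 0.0426). Its ECKO values rest on 1, 7 and 6 counts. Ccl19, a chemokine that guides T cells and dendritic cells through CCR7, went the other way, from 174, 271 and 154 CPM in ECKO to 4.54, 43.8 and 24.9 in DKO. The lowest ECKO library held more than 3 times the level of the highest DKO library, and the log2 fold change was -2.83 ± 0.55 (adjusted p = 0.0467). Of 8 tested genes of the chemokine and adhesion list, Ccl2 and Ccl19 were the only 2 called (0.572% of all genes). In the 6-library fit Vcam1, an adhesion molecule for leukocytes, was also called (3.23% of all genes). It had 376 to 538 CPM in ECKO and 999.3 to 1285 in DKO (adjusted p = 0.000330, against 0.200 in the 12-library fit). Of 21 tested genes of the Wnt pathway, Wnt9b alone was called in the main test (0.572% of all genes).

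Igf2 held the lowest fold change among the genes called in the 6-library fit. Igf2, a growth factor ligand, had 399, 378 and 338 CPM in ECKO 1 to 3 and 4.54, 13.9 and 33.2 CPM in DKO 1 to 3. The 2 ranges were more than 10-fold apart, yet in the main test Igf2 missed the threshold (adjusted p = 0.193), and in the 6-library fit its log2 fold change of -4.48 ± 0.33 passed (adjusted p = 1.42e-10). SMKO 2 had 15.4 CPM of it, against 607 in SMKO 1 and 704 in SMKO 3. Igfbp5, which binds and carries these ligands, had 1116, 814 and 852 CPM in ECKO and 136, 193 and 53.9 in DKO (6-library adjusted p = 5.75e-05, 12-library 0.165). SMKO 2 again lay with DKO, at 97.6 CPM against 808 and 1049 in SMKO 1 and 3. Igfbp3 went from 89.0 to 117 CPM in ECKO to 7.97 to 29.0 in DKO (6-library adjusted p = 9.10e-05, 12-library 0.316). Igfbp7 differed in the other direction, with 3992 to 5847 CPM in ECKO and 8386 to 14050 in DKO (6-library adjusted p = 0.0330, 12-library 0.330). Of the 10 tested genes of the IGF list, none was called in the main test, and the median log2 fold change was -0.52. At an unadjusted p under 0.05, 4 were lower and 2 higher (4.73% and 6.07% of all genes). In the 6-library fit 3 were called lower and 2 higher (1.33% and 1.89% of all genes), the fifth being Htra1.

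Receptors and channels of the cell surface were called in both directions. Kdr, the main signalling receptor for VEGF on endothelium, fell from 51.2, 54.0 and 62.0 CPM in ECKO 1 to 3 to 13.6, 19.9 and 12.4 in DKO 1 to 3 (log2 fold change -1.76 ± 0.40, adjusted p = 0.0399). Cd36, a receptor that takes up fatty acids and oxidised lipoproteins, fell from 41.0, 49.6 and 64.3 CPM to 4.54, 19.9 and 8.29 (log2 fold change -1.99 ± 0.44, adjusted p = 0.0399). In both genes the groups were separated by a wide gap, and the DKO values rest on 10 counts or fewer in each library. Trpv4, a calcium channel opened by stretch, flow and heat, rose from 20.5, 27.7 and 16.1 CPM to 81.7, 65.7 and 95.4 (log2 fold change 1.81 ± 0.44, adjusted p = 0.0496). SMKO 2 had 108 CPM of Trpv4 and SMKO 1 and SMKO 3 had 25.5 and 13.8. Of 5 tested mechanosensitive channels, Trpv4 was the only one called (0.572% of all genes). Of 8 tested lipid uptake genes, Cd36 was the only one called in the main test (0.572% of all genes).

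Endothelial markers were called in both directions. Of 18 tested members of the valve endothelial list, 14 had a lower level in DKO and 4 a higher one, where 51.8% of all genes were higher. The median log2 fold change was -0.38, against 0.02 over all genes. Kdr and Prox1 were called lower (0.222% of all genes) and Wnt9b was called higher (0.349% of all genes). Prox1, a transcription factor of lymphatic endothelium that is also made by valve endothelium facing disturbed flow, had 15.4, 62.7 and 68.9 CPM in ECKO and 9.08, 5.97 and 16.6 in DKO (log2 fold change -2.48 ± 0.53, adjusted p = 0.0336). ECKO 1, at 3 counts, lay below DKO 3, at 4 counts. Emcn, a sialomucin of the endothelial surface, had 143 to 186 CPM in ECKO and 31.8 to 79.7 in DKO, and Egfl7, a secreted endothelial factor, 188 to 276 CPM in ECKO and 47.8 to 91.2 in DKO. Both missed the main test and passed in the 6-library fit (adjusted p = 0.00177 and 5.93e-05, against 0.0563 and 0.187). The summed level of all 21 markers, given above, overlapped between the groups.

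Of signalling enzymes, Sphk1 and Ace rose. Sphk1, the kinase that makes sphingosine 1-phosphate, had 0, 4 and 3 counts in ECKO 1 to 3 (0, 5.84 and 6.89 CPM) and 12, 23 and 14 counts in DKO 1 to 3 (54.5, 45.8 and 58.05 CPM). Its log2 fold change of 3.24 ± 0.61 was the largest rise among the called genes (adjusted p = 0.0190), though ECKO lay close to the detection limit. CTRL had 4.37 to 7.73 CPM and SMKO 15.4 to 27.6, so that DKO held the 3 highest values of the 12 libraries. Enpp2, the enzyme that makes lysophosphatidic acid, had 241 to 342 CPM in ECKO and 58.05 to 109 in DKO (6-library adjusted p = 4.03e-06, 12-library 0.237). Ace, which cleaves angiotensin I and bradykinin, had 199.7, 248 and 216 CPM in ECKO and 499, 532 and 531 in DKO (log2 fold change 1.23 ± 0.29, adjusted p = 0.0426). The DKO libraries of Ace lay close together, more than 2 times above each ECKO library, and SMKO 2 had 534 CPM.

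Id4, an inhibitor of basic helix-loop-helix transcription factors and a target of BMP signalling, had the smallest p of the comparison. It had 87.0, 115 and 75.8 CPM in ECKO 1 to 3 and 490.3, 313 and 170.0 in DKO 1 to 3 (log2 fold change 1.77 ± 0.30, adjusted p = 0.0126). The 3 DKO libraries differed among themselves by nearly as much as the groups did, and all were above ECKO. CTRL had 255 to 320 CPM, so that DKO lay around the CTRL level and ECKO below it. The list of BMP genes did not follow: of 14 tested members Id4 was the only one called in the main test (0.572% of all genes). The median log2 fold change of the list was -0.18, and Id2 had 205 to 349 CPM in ECKO and 123 to 131 in DKO (6-library adjusted p = 0.00801, 12-library 0.0819). Bmp2, a ligand of that pathway, had 10.2 to 43.6 CPM in ECKO and 62.2 to 136 in DKO (6-library adjusted p = 0.00750, 12-library 0.633).

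Promoters were read for the called genes because 22 rose and 14 fell together, and TEAD, SMAD, AP-1 and E box factors act downstream of the pathways listed here. RefSeq's table for GRCm38.p6 held promoters of 15 genes that rose and 11 that fell. In windows of 250 bases before to 50 bases after each start, searched on both strands, the TEAD motif GGAATG was in 3 of 15 risen and 1 of 11 fallen genes (16.6% of all genes), the SMAD motif CAGAC in 7 and 3 (53.2%), the AP-1 motif TGANTCA in 2 and 0 (8.97%) and the E box CACGTG in 3 and 1 (8.09%). The upstream 250 bases of a start that holds GGAATG are shown for the 3 genes that rose, with GGAATG or its reverse complement in capitals. Each of Sphk1 and Col18a1 has further starts in the table without that motif.
Sphk1 (GRCm38.p6 chr11:116530850-116531099, plus strand): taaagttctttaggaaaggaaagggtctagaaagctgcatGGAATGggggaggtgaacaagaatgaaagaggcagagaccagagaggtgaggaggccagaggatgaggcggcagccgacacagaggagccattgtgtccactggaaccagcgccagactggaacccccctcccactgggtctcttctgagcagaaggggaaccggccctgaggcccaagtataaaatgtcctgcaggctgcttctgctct
Col18a1 (GRCm38.p6 chr10:77113706-77113955, minus strand): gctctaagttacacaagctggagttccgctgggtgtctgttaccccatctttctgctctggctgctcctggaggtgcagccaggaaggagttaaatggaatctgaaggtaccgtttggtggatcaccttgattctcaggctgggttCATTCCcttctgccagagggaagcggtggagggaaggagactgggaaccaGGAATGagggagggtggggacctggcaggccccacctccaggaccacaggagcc
Id4 (GRCm38.p6 chr13:48260866-48261115, plus strand): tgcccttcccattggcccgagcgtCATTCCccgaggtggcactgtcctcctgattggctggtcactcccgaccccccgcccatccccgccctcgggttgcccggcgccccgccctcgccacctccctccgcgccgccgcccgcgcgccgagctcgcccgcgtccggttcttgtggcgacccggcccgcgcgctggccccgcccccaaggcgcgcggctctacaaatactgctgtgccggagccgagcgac
These are matches of letters only. The shares among called genes rest on at most 7 genes per motif.

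Elastin and several matrix components rose in DKO, while other parts of the matrix fell. Eln, which encodes tropoelastin, the substrate that fibulin-4 helps to assemble, had 230.4, 158 and 209 CPM in ECKO 1 to 3 and 472, 558 and 377 in DKO 1 to 3 (log2 fold change 1.26 ± 0.29, adjusted p = 0.0399). All DKO libraries lay above all ECKO libraries, and SMKO 2 had 421 CPM against 174 and 193 in SMKO 1 and 3. Of 20 tested genes of the fibulin and elastic fibre list, 12 had higher levels (51.8% of all genes) and 8 lower levels. Eln was called higher and Efemp2 lower (0.349% and 0.222% of all genes). The microfibril proteins Mfap4 (425 to 702 CPM in ECKO, 185 to 357 in DKO) and Mfap5 (435 to 528 and 261 to 303 CPM) missed the main test and were called lower in the 6-library fit (adjusted p = 0.00923 and 0.0183, against 0.164 and 0.191).

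Col18a1 rose in DKO, and most other basement membrane genes had higher levels without passing the main test. Col18a1, the collagen whose tail is cut to endostatin, had 25.6, 35.02 and 45.9 CPM in ECKO and 104, 108 and 112 in DKO (log2 fold change 1.54 ± 0.37, adjusted p = 0.0467). The DKO libraries were tightly grouped and more than 2 times above the highest ECKO library. Of 15 tested members of the basement membrane list, 12 had higher levels in DKO (51.8% of all genes). Col18a1 alone was called (0.349% of all genes were called higher), and the median log2 fold change of the list was 0.54. In the 6-library fit 4 were called, all higher (1.89% of all genes): Col18a1, Col4a1, Col4a2 and Col15a1. Col4a2, a chain of the collagen IV network, had 133, 155 and 172 CPM in ECKO and 563, 498 and 489 in DKO, with 734 in SMKO 2 and 136 and 138 in SMKO 1 and 3 (6-library adjusted p = 5.70e-06, 12-library 0.236). Col15a1, a collagen at the border of basement membrane and interstitium, had 136 to 215 CPM in ECKO and 493 to 731 in DKO (6-library adjusted p = 8.96e-06, 12-library 0.304). The summed level of the 21 genes of the list was 1669 to 1805 CPM in ECKO, 2998 to 3355 in DKO and 3523 in SMKO 2, against 1572 to 1905 in the other 5 libraries.

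Fibrillar collagens were less clear. None of the 7 tested chains was called in the main test or in the 6-library fit. Of these, 6 had a higher level in DKO (51.8% of all genes), and 2 were higher at an unadjusted p under 0.05 (6.07% of all genes). The median log2 fold change of the 7 was 0.47. The list summed to 6979 to 8899 CPM in ECKO and 10730 to 13080 in DKO, without overlap. Of 21 collagen folding and modifying enzymes and chaperones, 20 had a higher level (51.8% of all genes) and none was called (0.572% of all genes). At an unadjusted p under 0.05, 5 were higher (6.07% of all genes). The median log2 fold change was 0.38, against 0.02 over all genes. In the 6-library fit Sparc, a collagen-binding glycoprotein, was called, with 3175 to 4357 CPM in ECKO and 7506 to 12850 in DKO (adjusted p = 0.00390, against 0.236), and so was Pcolce, which speeds removal of the procollagen tail (adjusted p = 0.0237, against 0.167). Col8a1, a short-chain collagen, had 46.1, 73.0 and 68.9 CPM in ECKO and 295, 323 and 261 in DKO and was likewise called there and not in the main test (adjusted p = 8.07e-07, against 0.395). SMKO 2 had 344 CPM of Col8a1, and SMKO 1 and 3 had 23.8 and 13.8.

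Among matricellular and other secreted matrix proteins, Ccn2, Aebp1 and Itgbl1 rose, and Ogn, Spon1 and Edil3 fell. Ccn2, a matricellular protein induced by TGF-beta and YAP, had 1188, 1024 and 810.4 CPM in ECKO 1 to 3 and 3632, 2953 and 2521 in DKO 1 to 3 (log2 fold change 1.59 ± 0.36, adjusted p = 0.0399). All 3 DKO libraries held more than 2 times the level of the highest ECKO library, and SMKO 2 had 1802 CPM against 664 and 566 in SMKO 1 and 3. Of the 15 tested YAP and TEAD targets Ccn2 was the only one called in the main test (0.572% of all genes), and the median of that list was 0.15. In the 6-library fit Ccn2 was called higher and Igfbp3, of the same list, lower (1.89% and 1.33% of all genes). Ogn, the small leucine-rich proteoglycan osteoglycin, had 133, 185 and 163 CPM in ECKO and 36.3, 49.8 and 45.6 in DKO (log2 fold change -1.86 ± 0.33, adjusted p = 0.0136), the second smallest p of the comparison. Of 12 tested proteoglycans Ogn alone was called in the main test (0.572% of all genes). Aspn, asporin, of the same family, had 41.0 to 82.7 CPM in ECKO and 18.2 to 29.0 in DKO (6-library adjusted p = 0.00450, 12-library 0.482). Spon1, a secreted adhesion protein, went from 338 to 434 CPM in ECKO to 118 to 201 in DKO (adjusted p = 0.0468). Edil3, an integrin ligand first described in endothelium, had 30.7, 51.1 and 45.9 CPM in ECKO and 9.08, 9.96 and 8.29 in DKO, which rest on 2, 5 and 2 counts (log2 fold change -2.23 ± 0.53, adjusted p = 0.0445). Aebp1, which binds collagen, had 64.3 to 123 CPM in ECKO and 165 to 344 in DKO (adjusted p = 0.0425). Itgbl1, a secreted protein related to integrin beta chains, had 73.5 to 102 CPM in ECKO and 203 to 209 in DKO (adjusted p = 0.0399).

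Most inhibitors of proteases had higher levels in DKO. Of 12 tested serpins and cystatins 11 had a higher level in DKO (51.8% of all genes). Serpinb1a and Serpini1, 2 of the 12, were called higher (0.349% of all genes). The median log2 fold change was 1.08, against 0.02 over all genes. Serpinb1a, which inhibits neutrophil proteases, had 20.5, 5.84 and 20.7 CPM in ECKO and 90.8, 111.5 and 62.2 in DKO (log2 fold change 2.73 ± 0.53, adjusted p = 0.0324). Serpini1, neuroserpin, an inhibitor of tissue plasminogen activator, had 21.9 to 36.7 CPM in ECKO and 70.5 to 126 in DKO (adjusted p = 0.0425). Serpine2, Serpina3n and Cst6 were among further members called in the 6-library fit, all higher. Timp1, an inhibitor of matrix metalloproteinases, had 91.8 to 113 CPM in ECKO, 319 to 418 in DKO and 452 in SMKO 2 (6-library adjusted p = 3.03e-06, 12-library 0.311). Of 15 tested matrix proteases and TIMPs 12 had a higher level in DKO (51.8% of all genes) and none was called in the main test (0.572% of all genes). At an unadjusted p under 0.05, 5 were higher and 1 lower (6.07% and 4.73% of all genes). Timp1 and Timp3 were the 2 called over the 6 libraries, both higher (1.89% of all genes).

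**Figure D3:**
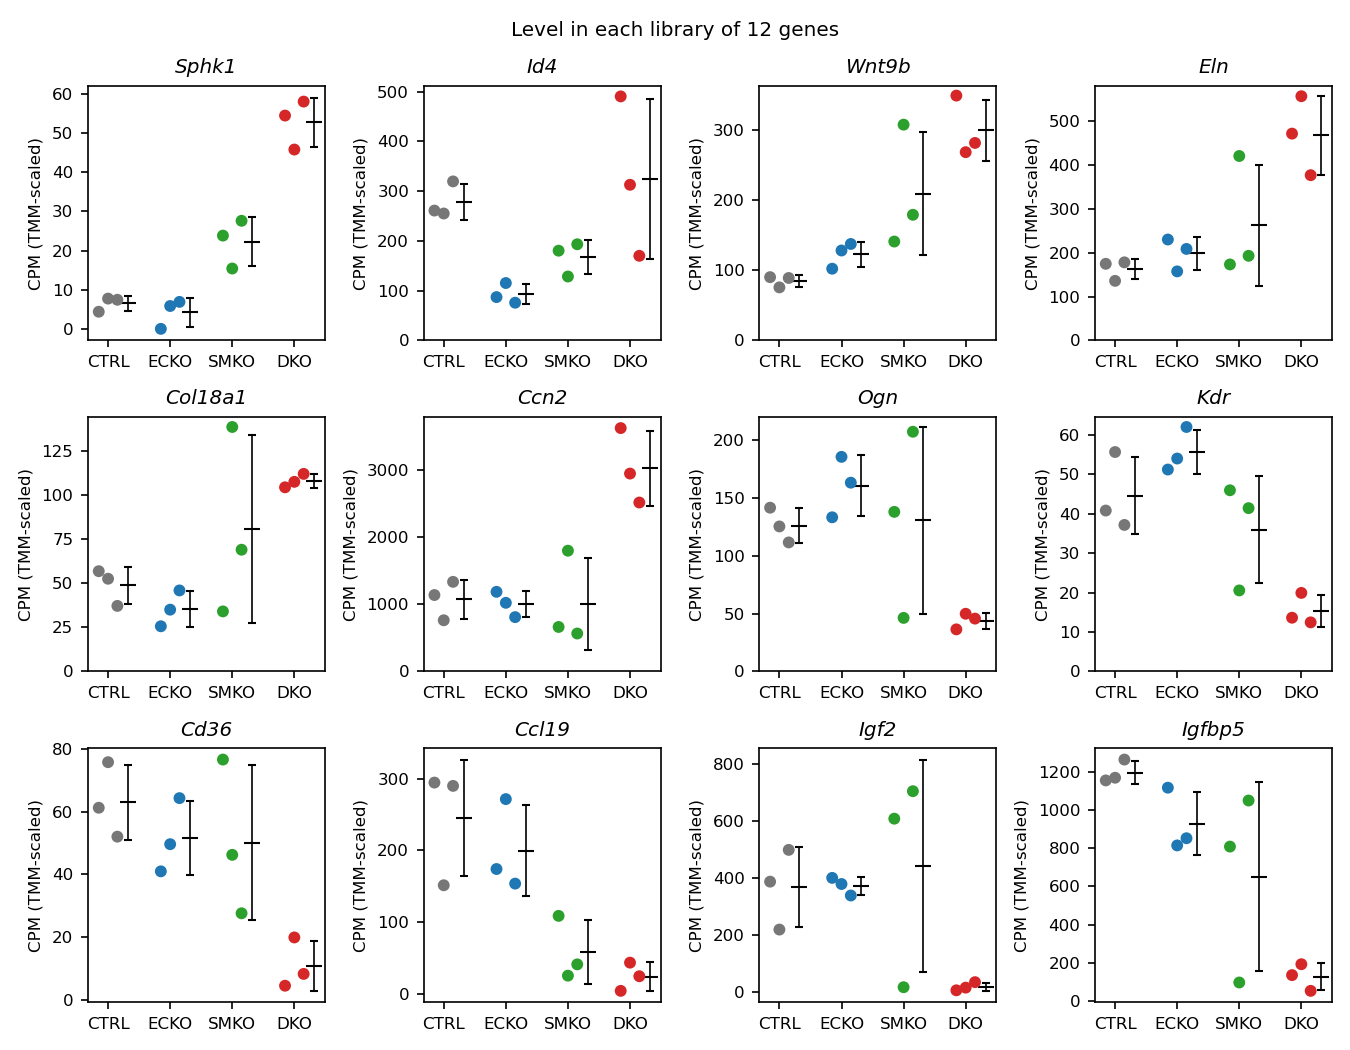
CPM in each of the 12 libraries (points, in order of replicate number) for 12 genes, with the mean and SD of each group of 3 (bars). In Sphk1, Id4, Wnt9b, Eln, Col18a1 and Ccn2 the 3 DKO points lie above the 3 ECKO points, in Ogn, Kdr, Cd36, Ccl19, Igf2 and Igfbp5 they lie below, and the middle SMKO point (SMKO 2) lies near DKO in Igf2, Igfbp5, Col18a1, Eln and Ogn.

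Most melanocyte genes had higher levels in DKO than in ECKO, and 1 of them passed the main test. Dct, a pigment enzyme of the melanin pathway, had 35.8, 23.4 and 45.9 CPM in ECKO and 318, 149 and 153 in DKO (log2 fold change 2.57 ± 0.49, adjusted p = 0.0399). The lowest values of the 4 groups were those of ECKO: CTRL had 74.3 to 303 CPM and SMKO 179 to 308. Of 6 tested melanocyte genes 5 had a higher level in DKO (51.8% of all genes) and Dct alone was called (0.572% of all genes). The median log2 fold change of the 6 was 2.96. Tyrp1 and Mlana, further pigment cell genes, missed the main test and passed in the 6-library fit (adjusted p = 0.000201 and 0.000788, against 0.185 and 0.203), and each had 0 counts in ECKO 1. Ednrb, an endothelin receptor and the member with a lower level in DKO, went the other way, with 57.4 to 67.1 CPM in ECKO and 9.08 to 29.9 in DKO (log2 fold change in the 6-library fit -1.45 ± 0.36, adjusted p = 0.0172, 12-library 0.0962). The summed level of the 12 markers was 138 to 172 CPM in ECKO, 440.1 to 953 in DKO, 260.0 to 791 in CTRL and 262 to 1068 in SMKO. Whether leaflets differed in melanocyte number or in RNA per melanocyte cannot be told apart.

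Trf, LTO1 and Capg were also called higher, and Fmnl2 and Dock9 lower. Trf, transferrin, had 261, 295 and 310 CPM in ECKO and 794.5, 544 and 1062 in DKO (log2 fold change 1.46 ± 0.29, adjusted p = 0.0276). The groups did not overlap; Trf shares exon sequence with the gene model Gm20425 on the same strand, so its counts are uncertain to that extent. LTO1, a factor of ribosome biogenesis, had 92.2 to 161 CPM in ECKO and 229 to 377 in DKO (adjusted p = 0.0276) and overlaps Ccnd1 on the opposite strand. Capg, which caps actin filaments, had 58.4 to 71.2 CPM in ECKO and 141 to 185 in DKO (adjusted p = 0.0336). The formin Fmnl2, which elongates actin filaments, moved in the other direction, with 46.1, 75.9 and 94.1 CPM in ECKO and 27.2, 19.9 and 37.3 in DKO (log2 fold change -1.50 ± 0.36, adjusted p = 0.0467). Dock9, an exchange factor for CDC42, also fell, from 76.8 to 104 CPM in ECKO to 27.2 to 37.8 in DKO (adjusted p = 0.0399).

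The remaining called genes belong to no pathway list used here. Mall, a membrane raft protein, had 21.9 to 41.0 CPM in ECKO and 86.3 to 116 in DKO (adjusted p = 0.0276). Prxl2a had 18.4 to 41.0 CPM in ECKO and 74.6 to 161 in DKO (adjusted p = 0.0399). Rnf149, a ubiquitin ligase, had 20.5 to 23.4 CPM in ECKO and 49.8 to 109 in DKO (adjusted p = 0.0467). These 3 rose with no overlap, as did Atp13a3, a polyamine transporter (41.0 to 96.4 CPM in ECKO, 168 to 197 in DKO; adjusted p = 0.0399), and Ildr2 (35.8 to 52.5 and 81.7 to 122 CPM; adjusted p = 0.0468). Gas1, a co-receptor of hedgehog ligands, had 189, 198 and 186 CPM in ECKO and 45.4, 99.6 and 66.4 in DKO (log2 fold change -1.36 ± 0.30, adjusted p = 0.0399). Lsamp, an adhesion protein of the cell surface, had 56.9 to 66.6 CPM in ECKO and 9.08 to 23.9 in DKO (adjusted p = 0.0399), and Clk1, a kinase of splicing factors, 97.3 to 158 and 53.8 to 62.2 CPM (adjusted p = 0.0468). Ttc5, a cofactor of p53 that also acts in tubulin autoregulation, had 37.9 to 46.1 CPM in ECKO and 4.54 to 8.29 in DKO, on 1, 4 and 2 counts (adjusted p = 0.0468). All 4 fell without overlap.

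**Figure D4:**
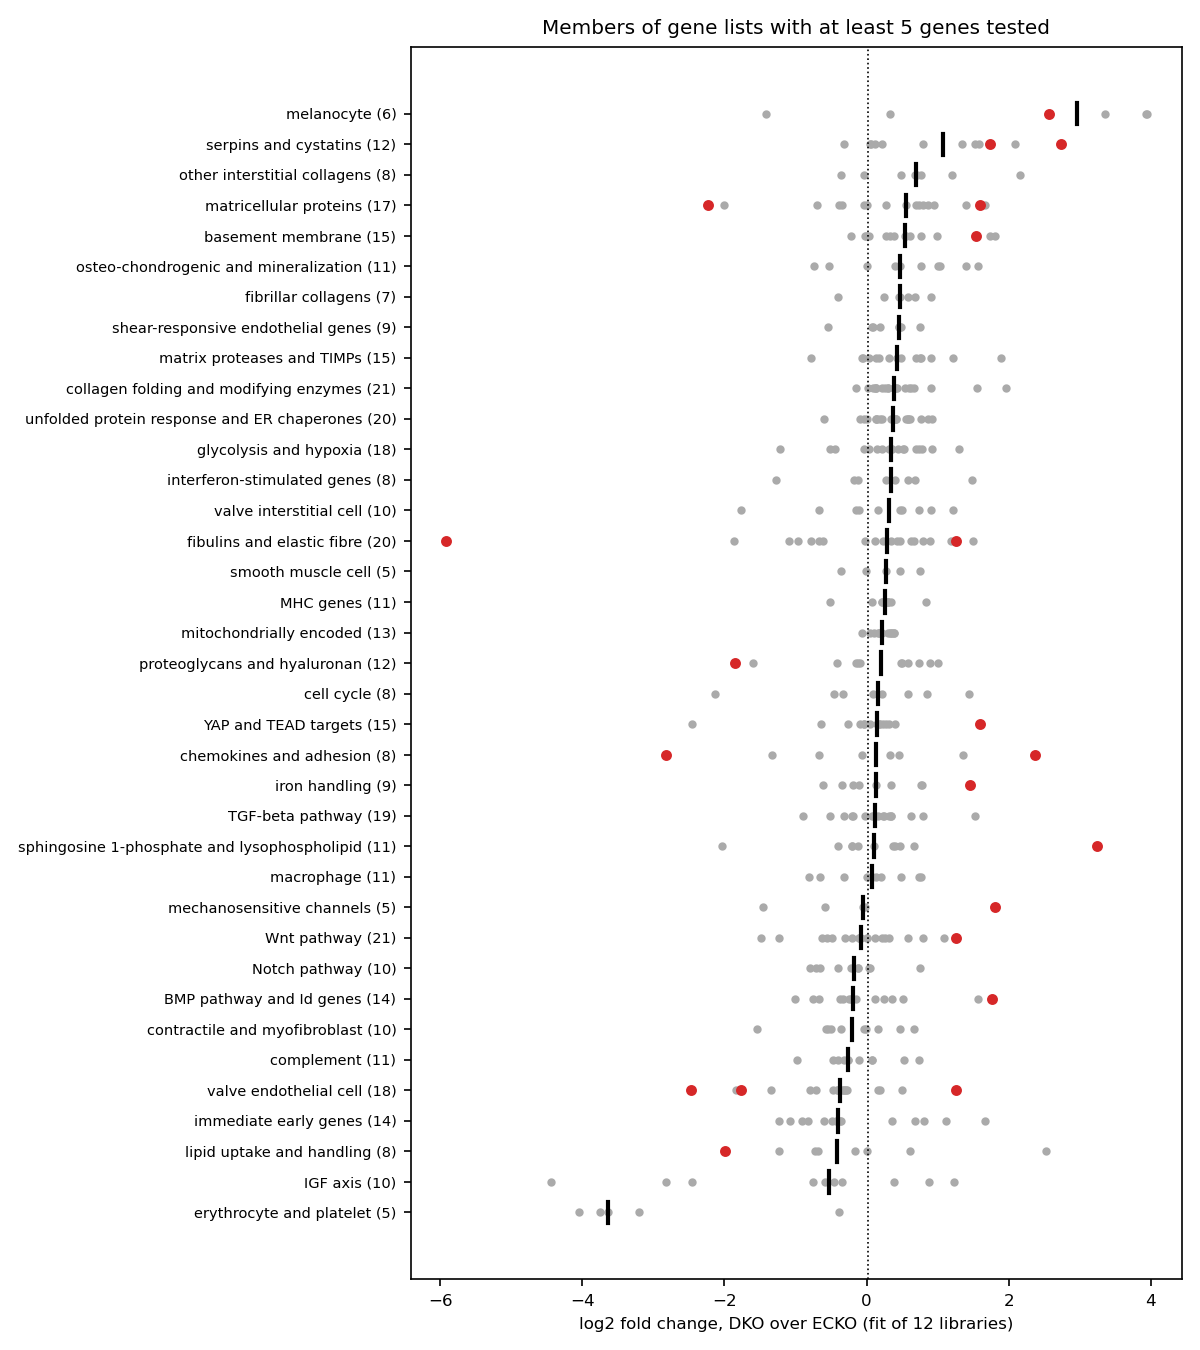
Log2 fold change of DKO over ECKO in the fit of 12 libraries for the tested members of each gene list with at least 5 of them (number in brackets), with called genes in red and the list median as a bar; the dotted line is the median over all genes, 0.02. The melanocyte list has the highest median (2.96) and the erythrocyte and platelet list, whose genes were not called, the lowest (-3.63).

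Several pathways had few or no calls. Over all genes 0.572% were called, and 6.07% were higher and 4.73% lower at an unadjusted p under 0.05. Of 19 tested TGF-beta genes none was called (1 higher and 2 lower at an unadjusted p under 0.05; median log2 fold change 0.12), and of 10 Notch genes none (1 lower; median -0.17). Among 14 immediate early genes none was called, with 3 higher and 3 lower at an unadjusted p under 0.05. The 20 tested genes of the unfolded protein response had a median of 0.38 with none called. Of these, 17 had a higher level in DKO (51.8% of all genes), and 3 were higher and 0 lower at an unadjusted p under 0.05. The 11 tested MHC genes had a median of 0.26 with none called (0 higher and 0 lower at that p). The 11 tested complement genes had a median of -0.25 with none called (0 higher and 1 lower). Of 10 contractile and myofibroblast genes none was called and the median was -0.20; the 5 tested smooth muscle markers had a median of 0.27 and none was called. Macrophage markers (11 tested) had a median of 0.08 and none was called. Of 10 tested valve interstitial markers 6 had a higher level in DKO and 4 a lower one, with a median of 0.31 and none called. Over the 6 libraries 2 of the 10 were called (3.23% of all genes), in opposite directions. Pdgfra, a receptor of valve interstitial cells, had 143, 195 and 276 CPM in ECKO and 45.4, 67.7 and 66.4 in DKO (6-library adjusted p = 7.36e-05, 12-library 0.0962). Timp3 rose, from 3926 to 5248 CPM in ECKO to 8251 to 13960 in DKO (6-library adjusted p = 0.03345, 12-library 0.3951).

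The same smooth muscle deletion can be read on the other endothelial background, as SMKO against CTRL, which shares no library with DKO against ECKO. No gene of 6296 was called there (0.0%) by edgeR, by DESeq2 or by limma-voom, and 345 (5.48%) had an unadjusted p under 0.05. Of the 22 genes that rose in DKO against ECKO, 18 had a log2 fold change above 0 in SMKO against CTRL (50.4% of all genes), and of 13 that fell, Efemp2 left out, 11 were below 0 (49.6% of all genes). Their medians there were 0.57 and -0.27, against 1.56 and -1.76 in DKO against ECKO. These counts rested on SMKO 2: without it, 10 of the 22 were above 0 (48.0% of all genes) with a median of -0.035, and 7 of the 13 below 0 (52.0%) with a median of -0.005. Trpv4 (2.11) and Sphk1 (1.77) had the largest positive values in SMKO against CTRL and Ccl19 (-1.72) the lowest of the 13, and none of these was called.

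**Figure D5:**
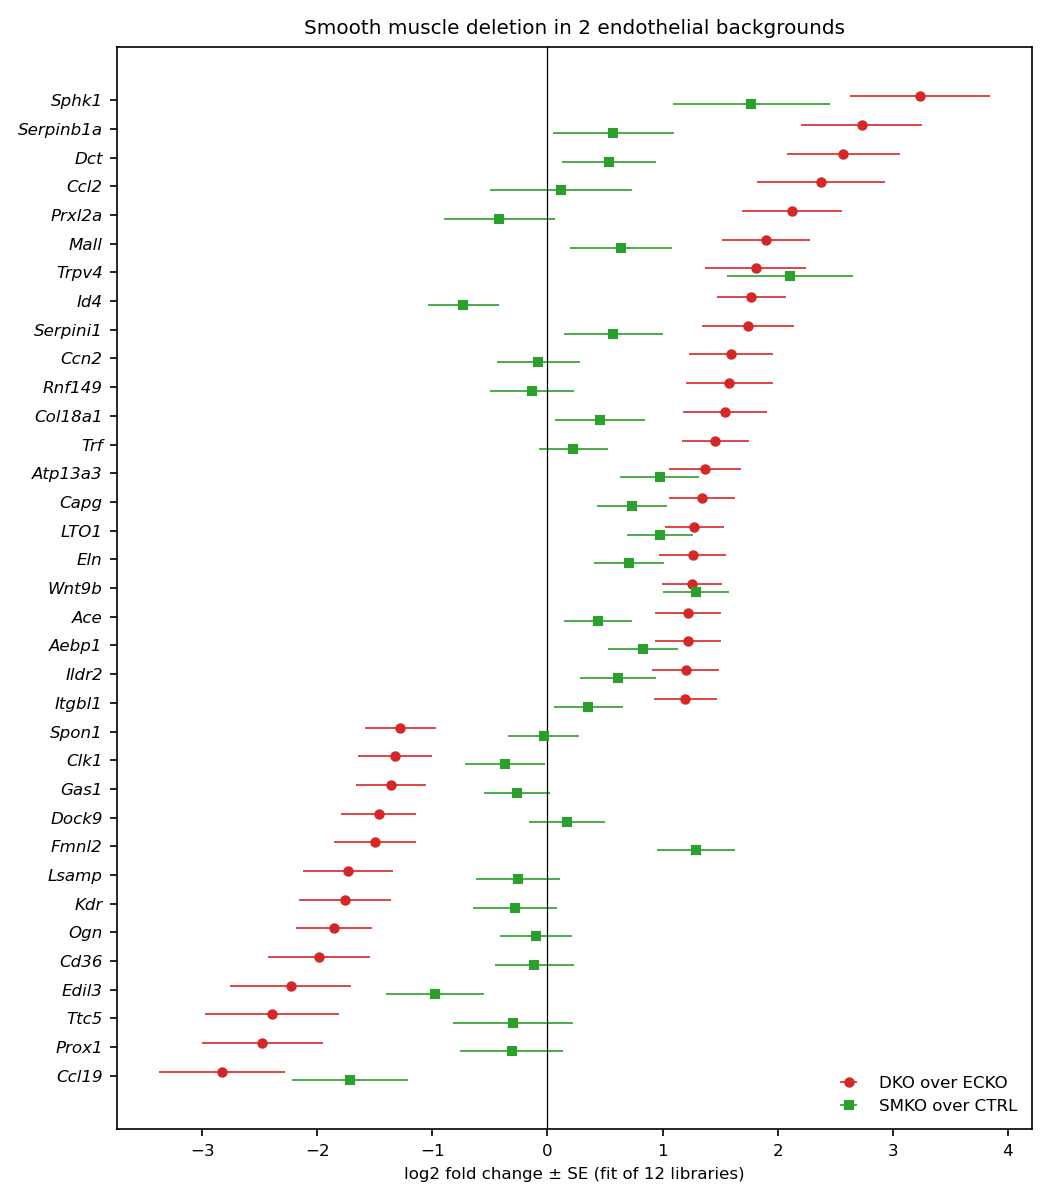
Log2 fold change with its standard error for the called genes other than Efemp2, in DKO over ECKO (red circles) and in SMKO over CTRL (green squares), from the fit of 12 libraries. Of the 22 upper genes 18 have both symbols to the right of 0, and Id4 and Fmnl2 are among those with symbols on opposite sides; the counts in SMKO over CTRL rest on SMKO 2.

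Whether the effect of smooth muscle deletion differed between the 2 backgrounds was tested as the interaction DKO - ECKO - SMKO + CTRL. It called 2 of 6296 genes (0.0318%), Id4 with an interaction of 2.50 ± 0.43 on the log2 scale and Fmnl2 with -2.78 ± 0.49 (adjusted p = 0.0105 for both). In Id4 the SMKO libraries, at 128 to 193 CPM, lay below the CTRL libraries, at 255 to 320, whereas DKO lay above ECKO. In Fmnl2 the SMKO libraries, at 66.8 to 98.7 CPM, lay above CTRL, at 32.1 to 37.2, whereas DKO lay below ECKO. Both passed without SMKO 2 (adjusted p = 0.00221 and 0.00116). Both missed without SMKO 1 (adjusted p = 0.0749 and 0.561), CTRL 1 (0.0529 and 0.0785) or DKO 1 (0.0713 for both). They also missed without DKO 2 (0.0622 and 0.208) or ECKO 3 (0.125 for both), and Fmnl2 missed without ECKO 2 (0.0748). In the fit without robust spread the adjusted p was 0.0569 and 0.0530. No other called gene of DKO against ECKO was shown to differ between the backgrounds, which at 3 libraries a group does not show that they act alike.

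In the authors' deposited table of comparisons, all 36 called genes have a fold change of the same sign for DKO and ECKO. All 36 have a p under 0.05 there, the largest being 0.0217, beside 1070 of 16588 genes under 0.05. No source used here says whether that p is adjusted. These values come from the same libraries as the calls and are not independent of them. Several genes outside the lists stood out over the 6 libraries and were chosen here after their values were seen. Ly6a, a GPI-anchored surface protein, had 225, 193 and 218 CPM in ECKO and 1199, 1408 and 1509 in DKO (6-library adjusted p = 4.07e-09, 12-library 0.273). Gpx3, a secreted glutathione peroxidase, had 384, 318 and 339.8 CPM in ECKO and 36.3, 35.9 and 78.8 in DKO (6-library adjusted p = 3.25e-08, 12-library 0.180). In SMKO 2 these genes stood at 1987 and 35.9 CPM, with DKO, against 124 to 276 and 138 to 262 in SMKO 1 and 3.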

How the data were processed

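The authors deposited 1 table with whole-number total counts per gene and library, per the file headers, and all tests used these deposited counts. TPM values made by the authors stand in the same table and enter no result. It also has the authors' fold change and p-value for DKO against each other group; no source used here names the test behind them. Reads came from Nextera XT libraries sequenced as 75-base pairs, per the labels' protocols, and the build was GRCm39, per the submitters' processing notes. Aligner and counter: not given in the sources used here.

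Genes were kept by filterByExpr (minimum count 10; 6296 genes, 93.1% of counts). After TMM scaling, 1 robust quasi-likelihood fit of all 12 libraries (8 residual degrees of freedom) was made in edgeR 4.0.16 under R 4.3.3, and the contrast DKO minus ECKO was tested by its F statistic. P-values were adjusted by Benjamini and Hochberg's method over all genes tested, and genes with an adjusted p under 0.05 were called. Every adjusted p in the text is from this test, in the fit of 12 libraries unless a fit of the 6 libraries, or one without a named library, is stated; those of the interaction are for the contrast DKO - ECKO - SMKO + CTRL. The standard error was taken as the size of the log2 fold change divided by the root of F. CPM are TMM-scaled, and levels are mean ± SD over 3 libraries. Intervals and floors cover counting error only. Alternatives used DESeq2 1.42.0, limma 3.58.1, other filters, scalings and covariates, and each library left out. The scripts were tested on simulated data. The common biological coefficient of variation was 0.246, and replicates differed by more than sampling noise, so no libraries were merged.

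The comparison, its 43 gene lists and the naming rule were chosen with earlier results of these data known. The rule named every called gene, Efemp2 and, for each list, its called members and the 2 to 4 members of smallest p; Serpine2, Egfl7, Igfbp7, Bmp2 and Mfap5 were added for their call in the fit of the 6 libraries, after their values were seen. All 36 called genes were found by identifier in GENCODE M21, used only for exon overlaps. Positions of promoters are those of RefSeq on GRCm38.p6, an older build than that of the counts.

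A few results are not reported here.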

Additional observations from a re-analysis of the deposited data

Results flagged for a closer look

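The effect of smooth muscle deletion differed by an interaction test between the endothelial-deleted and the endothelial-intact background in 2 genes. Id4 had an interaction of 2.50 on the log2 scale: DKO lay above ECKO in all 3 libraries against all 3, and SMKO lay below CTRL in all 3 against all 3. Over 23 settings tried, the main one included, the interaction of Id4 ran from 2.13 to 2.83 and passed in 16. Fmnl2 had an interaction of -2.78, with DKO below ECKO and SMKO above CTRL, again without overlap. Its interaction ran from -3.00 to -2.47 and passed in 15 of the 23 settings.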

How the results depend on the processing

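The count of 36 genes called in DKO against ECKO was 173 with no filter on low counts, 10 with a stricter filter, 12 with limma-voom, 98 with limma-voom and sample weights, 10 with library size as a covariate and 172 in the fit of the 6 libraries alone; the cause was not tested. With 1 library left out it ran from 0 to 150. DESeq2 called 42 genes, 20 of them among the 36. In the fit of the 6 libraries the count of 172 was 103 with DESeq2 and ran from 92 to 279 with 1 library left out; these alternatives within that fit were chosen after seeing the data. In SMKO against CTRL the count of 0 was 8 with no filter and ran from 0 to 1 with 1 library left out. The interaction count of 2 was 28 with no filter, 1 with DESeq2, 1 with limma-voom, 0 without robust spread (402 genes at an unadjusted p under 0.05) and 0 to 62 with 1 library left out, 62 being without SMKO 2. Libraries of the same replicate number had correlated deviations of 0.139, 0.0176 and 0.0997 between DKO and ECKO. Between SMKO and CTRL the values were 0.177, 0.0803 and 0.141. Each was the highest for its DKO or SMKO library, and unlike numbers ran from -0.183 to 0.0873. The labels state no pairing, so the main test did not read the numbers as pairs. With a replicate block the main count was 50, 35 of them among the 36, and the 6-library count 244. Of 805 values of the 36 genes over 23 other settings, 454 kept their side of the threshold and 351 lost the call. With 3 libraries a group and totals of 207637 to 615665 counts, genes with few counts were not testable, and calls that rest on fewer than 10 counts in a library are the least precise. The difference of Efemp2 kept its direction under each pseudocount and with each library left out.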
